A study of Homo sapiens with 8 samples.

Results

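The 37 genes described here act in homologous recombination, the Fanconi anaemia pathway and the DNA damage checkpoint. They were taken by symbol from a fixed list, and all 37 are found both in the RNA-seq table of 17927 genes and in the Ribo-seq table of 14019 genes. The groups are SH-SY5Y cells, an established human neuroblastoma line, carrying a short hairpin RNA against RPS29 (shRPS29, the knockdown), and the same line with a control hairpin (shCONT). RPS29 is a protein of the small ribosomal subunit. Each hairpin has 2 RNA-seq and 2 Ribo-seq libraries, and Ribo-seq counts the RNA fragments that ribosomes protect. The labels do not say how many hairpin sequences were used, nor whether replicates were separate cultures, so p-values measure the spread between these libraries, which may be technical.

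Cells repair a double-strand break without loss by copying the sister chromatid. The MRE11-RAD50-NBN complex and RBBP8 (CtIP) trim the ends, BRCA1 and PALB2 bring in BRCA2, and BRCA2 prepares the trimmed end for strand exchange, with help from RAD51B, RAD51C, RAD51D, XRCC2 and XRCC3. At a crosslink between the DNA strands, the Fanconi core complex attaches ubiquitin to FANCD2 and FANCI, which opens the way to incision and then to recombination. The kinases ATM and ATR sense the damage and signal through CHEK2 and CHEK1. Many of these genes are transcribed mostly in cycling cells, from promoters that carry E2F, CCAAT-box or CHR (cell cycle homology region) elements.

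Total counts lay between 17539104 and 19156104 in the RNA-seq libraries and between 2630463 and 4375971 in Ribo-seq. RPS29 RNA was at 7.53 and 6.46 CPM (counts scaled to library size) in the knockdown libraries, against 137 and 160 CPM in the controls. Its log2 fold change, knockdown over control, was -4.40 (SE 0.115, edgeR adjusted p = 6.32e-12). The 10 noradrenergic neuroblastoma markers summed to 5819 and 5884 CPM in the knockdown and 5952 and 6165 CPM in the controls, although TH, the enzyme of catecholamine synthesis, had at most 4 counts in a library. Epithelial markers summed to 4.56 and 5.13 CPM in the knockdown and 5.80 and 7.92 CPM in the controls, with KRT5 and KRT14 not listed. Blood cell markers summed to 2.31 and 1.88 CPM in the knockdown and 0.902 and 1.12 CPM in the controls, with CD3E and HBB among those not listed. Fibroblast markers, which neuroblastoma cells can also express, summed to 164 and 166 CPM in the knockdown and 179 and 173 CPM in the controls. Among Ribo-seq libraries, knockdown replicate 1 stood apart: over genes its Spearman correlation was 0.732 with the other knockdown library and 0.528 and 0.455 with the controls, where the controls correlated at 0.827. Knockdown replicate 2 correlated at 0.743 with control replicate 1 and at 0.692 with control replicate 2. It was thus about as close to a control library as to the other knockdown library. RNA-seq replicates correlated at 0.992 in the knockdown and 0.993 in the controls.

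The upstream sequences of 5 genes are shown because these are the 4 genes with the smallest p-values among those whose RNA fell, and FANCF, the gene whose RNA rose. Each line gives the 250 bases before the annotated start, 5′ to 3′ on the gene's strand, from RefSeq (GRCh38.p14). Capitals mark a CCAAT box (CCAAT), an E2F site (TTTCCCGC, TTTCGCGC, TTTGCCGC or TTTGGCGC) or a CHR element (TTTGAA or TTCGAA) on either strand. BRIP1 lies on chr17:61863529-61863778, MDC1 on chr6:30717282-30717531, CLSPN on chr1:35769979-35770228, BRCA1 on chr17:43125365-43125614 and FANCF on chr11:22625824-22626073, all on the minus strand. BRCA1 has 2 annotated starts, and the one with the lower coordinate is shown.
BRIP1: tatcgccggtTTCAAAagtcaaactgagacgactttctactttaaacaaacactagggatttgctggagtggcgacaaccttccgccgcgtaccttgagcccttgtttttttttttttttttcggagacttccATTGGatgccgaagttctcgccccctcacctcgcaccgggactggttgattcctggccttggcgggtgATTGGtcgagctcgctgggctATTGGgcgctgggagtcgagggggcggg
MDC1: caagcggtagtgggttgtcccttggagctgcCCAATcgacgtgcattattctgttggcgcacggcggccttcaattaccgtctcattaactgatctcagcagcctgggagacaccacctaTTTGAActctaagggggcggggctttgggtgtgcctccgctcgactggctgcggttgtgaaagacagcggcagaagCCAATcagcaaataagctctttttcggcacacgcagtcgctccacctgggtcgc
CLSPN: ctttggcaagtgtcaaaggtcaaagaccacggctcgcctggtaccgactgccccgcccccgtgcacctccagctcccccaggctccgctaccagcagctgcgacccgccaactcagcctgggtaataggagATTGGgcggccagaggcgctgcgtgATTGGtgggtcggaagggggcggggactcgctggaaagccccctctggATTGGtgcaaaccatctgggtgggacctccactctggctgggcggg
BRCA1: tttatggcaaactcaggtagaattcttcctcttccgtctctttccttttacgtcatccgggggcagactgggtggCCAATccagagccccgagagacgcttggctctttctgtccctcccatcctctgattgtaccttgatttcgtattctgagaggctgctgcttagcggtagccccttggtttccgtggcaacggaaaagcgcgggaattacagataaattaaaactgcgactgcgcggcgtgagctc
FANCF: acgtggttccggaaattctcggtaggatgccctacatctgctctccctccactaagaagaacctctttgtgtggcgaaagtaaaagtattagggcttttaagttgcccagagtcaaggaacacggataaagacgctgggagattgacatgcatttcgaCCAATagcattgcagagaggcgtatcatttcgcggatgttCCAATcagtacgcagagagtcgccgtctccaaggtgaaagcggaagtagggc
BRIP1 and CLSPN each hold 3 CCAAT boxes here, MDC1 and FANCF hold 2, and BRCA1 holds 1. MDC1 and BRIP1 also hold a CHR element. No E2F site of these letters lies in the 5 windows. Over the 34 of the 37 genes that have an entry, 17 (50%) hold a CCAAT box at 1 or more of their starts, against 37% of 27305 genes with an entry and 40.2% of those coding for protein. The CHR letters were found in 4 of 34 (11.8%, against 17.2% of all genes) and the E2F letters in 2 of 34 (5.88%, against 3.4%). Of the 8 genes whose RNA fell, 7 hold a CCAAT box, FANCD2 being the exception, 2 hold the CHR letters and 1 the E2F letters. Whether any of these goes with the change in RNA was not tested. FANCF, which rose, holds such boxes too. These are matches of letters and not measured binding.

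The first comparison asked how the RNA of these genes differed between knockdown and control cells. A modest part of the pathway fell: BRIP1, MDC1, CLSPN, BRCA1, FANCA, FANCD2, MRE11 and BLM were lower, and FANCF was the sole gene to rise. Changes were small, from -0.66 to 0.29 on the log2 scale among the 9 called genes. All 37 genes passed the count filter. The 8 of 37 called lower (21.6%) stood against 16.3% of the 14723 genes tested, and the 1 called higher (2.70%) against 14.4%. The share called lower is near that of all genes, and the share called higher is below it. The median log2 fold change was -0.12 over the 37 genes and 0.01 over all genes tested. In 20 of the 37 genes both knockdown libraries lay below both controls, and in 8 they lay above. Over all genes tested these arrangements took 32.9% and 32.3%. The RNA of the 37 genes summed to 1809 and 1800 CPM in the knockdown libraries, against 1930 and 1933 CPM in the controls.

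**Figure D1:**
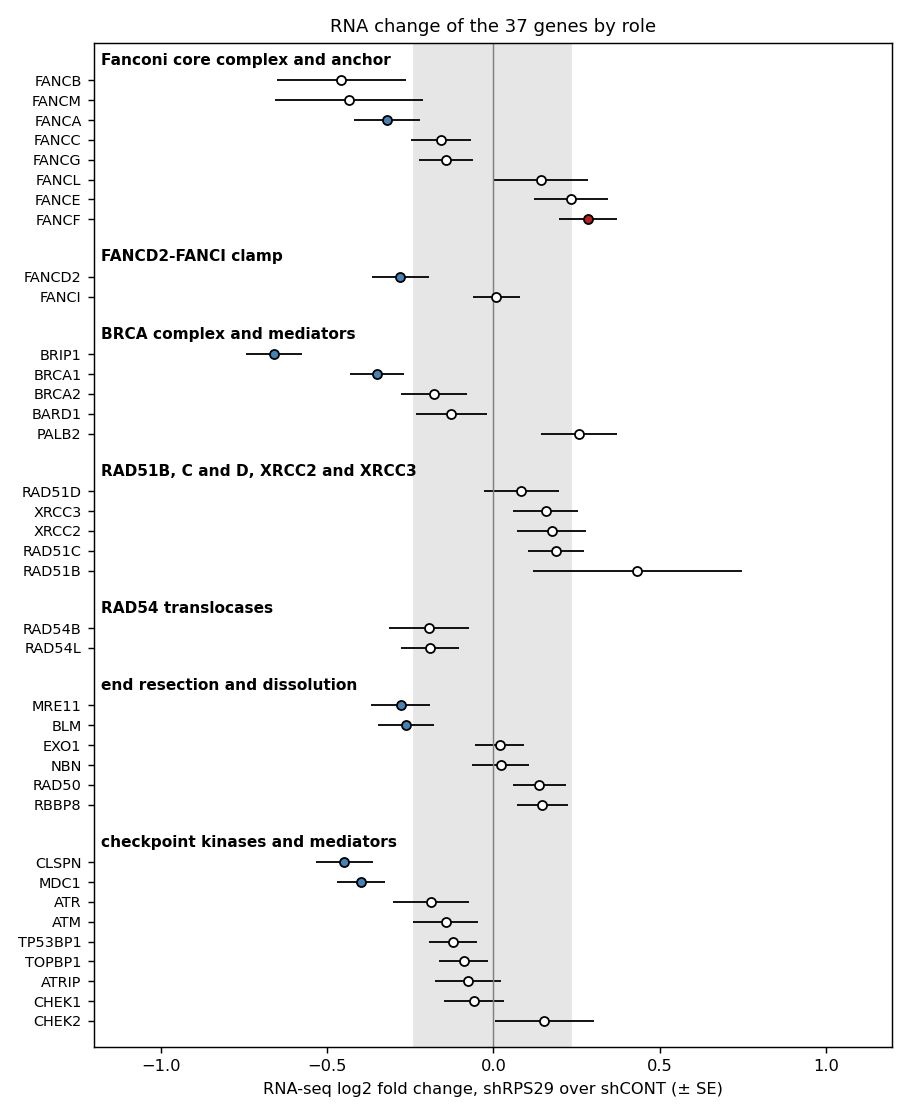
RNA-seq log2 fold change (shRPS29 over shCONT, 2 libraries each) of the 37 genes by role, with bars of 1 standard error. Filled points passed the edgeR test (blue lower, red higher), open points did not, and the grey band spans the middle 50% of all genes tested; BRIP1 at -0.66 lies farthest left, and RAD51B, RAD51C, RAD51D, XRCC2 and XRCC3 lie right of 0.

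Proliferation genes moved with this comparison. Of 18 of them, cyclins, mitotic kinases and MCM helicase subunits among them, 11 fell and 1 rose, with a median log2 fold change of -0.55. These are 61.1% and 5.56%, against 16.3% lower and 14.4% higher over all genes tested. In Ribo-seq 3 of the 17 tested fell (17.6%, against 0.607% of all genes tested) and 0 rose, with a median of -1.43 (11 lower and 0 higher at an unadjusted p under 0.05). Their summed footprints did not fall, with 7469 and 8799 CPM in the knockdown and 7238 and 4401 CPM in the controls. That sum is dominated by few genes, since a single gene reached 8050 CPM in a library. Fewer cycling cells and less RNA per cell cannot be told apart in bulk libraries, and the part of proliferation in the changes of repair genes was not tested. The lists used here were chosen with earlier results of these data known.

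Among the BRCA1 complex and its partners, BRIP1 changed most. BRIP1 (FANCJ), a helicase that binds BRCA1, had 51.7 and 58.6 CPM in the knockdown libraries, against 85.6 and 88.6 CPM in the controls. Both knockdown libraries lay well below both controls, and the log2 fold change was -0.66 (SE 0.0840, 95% interval -0.84 to -0.48, edgeR adjusted p = 4.46e-05). BRCA1 itself, a ubiquitin ligase and which acts in end resection and in the steps after it, had 46.9 and 50.3 CPM against 62.9 and 60.9 CPM in the controls (-0.35, SE 0.0821, adjusted p = 0.00481). Its ligase partner BARD1 was at -0.13 (adjusted p = 0.413), and BRCA2, which acts at strand exchange, at -0.18 (adjusted p = 0.200). PALB2, which bridges BRCA1 and BRCA2, pointed the other way with 24.9 and 26.3 CPM against 23.1 and 19.7 CPM in the controls (0.26), but did not pass the test (adjusted p = 0.103).

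In the checkpoint, 2 of 9 genes fell and 0 rose by edgeR, with 2 lower and 0 higher at an unadjusted p under 0.05. The 22.2% lower is near the 16.3% of all genes tested. MDC1, the mediator that binds phosphorylated H2AX at breaks, had 109 and 103 CPM in the knockdown and 139 and 140 CPM in the controls (-0.40, SE 0.0718, edgeR adjusted p = 7.48e-04). CLSPN (claspin), the adaptor through which ATR phosphorylates CHEK1, had 44.9 and 44.4 CPM in the knockdown, against 57.5 and 64.3 CPM in the controls (-0.45, SE 0.0857, adjusted p = 0.00115). For both genes the groups were clearly apart. The kinases themselves were not called: ATM was at -0.14, ATR at -0.19, CHEK1 at -0.06 and CHEK2 at 0.15. CHEK1 had 80.7 and 73.7 CPM in the knockdown and 73.7 and 87.1 CPM in the controls, so its groups overlapped, and its 95% interval ran from -0.25 to 0.14. ATRIP, the partner of ATR, was at -0.08, TOPBP1, its activator, at -0.09 and TP53BP1, which restrains resection, at -0.12.

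Of 8 genes of the Fanconi core complex and its anchor, 1 fell and 1 rose (12.5% each, against 16.3% lower and 14.4% higher over all genes tested). FANCA, a core scaffold subunit and the gene most often mutated in Fanconi anaemia, had 31.2 and 29.2 CPM in the knockdown, against 40.0 and 35.4 CPM in the controls (-0.32, edgeR adjusted p = 0.0244). FANCF, the adaptor that holds core subunits together, had 52.2 and 48.6 CPM in the knockdown and 42.3 and 40.4 CPM in the controls. Its log2 fold change was 0.29 (SE 0.0864, adjusted p = 0.0211), with no overlap between groups. FANCB and the translocase FANCM gave larger decreases, -0.46 and -0.43, from at most 153 counts a library and were not called (adjusted p = 0.0915 and 0.158). FANCC was at -0.16, FANCG at -0.14, the ubiquitin ligase subunit FANCL at 0.14 and FANCE at 0.23, and none of these was called. FANCL had 36.5 CPM in knockdown replicate 1 and 25.8 CPM in replicate 2, against 25.8 and 30.7 CPM in the controls, so that its groups overlapped.

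Of the pair that carries the ubiquitin, FANCD2 fell and FANCI was not called. FANCD2 had 48.0 and 43.8 CPM in the knockdown and 54.2 and 57.2 CPM in the controls, a log2 fold change of -0.28 (edgeR adjusted p = 0.0219). FANCI had 147 and 142 CPM in the knockdown and 142 and 144 CPM in the controls, with overlap, and its log2 fold change of 0.01 has a 95% interval from -0.14 to 0.16. Whether FANCD2 and FANCI differ from each other was not tested.

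In end resection, MRE11, the nuclease of its complex, had 37 and 36.3 CPM in the knockdown against 45.6 and 43.3 CPM in the controls (-0.28, SE 0.0882, edgeR adjusted p = 0.0261). Its partners were not called: RAD50, the ATPase, was at 0.14 (adjusted p = 0.207) and NBN, which recruits ATM, at 0.02 (adjusted p = 0.876). BLM, the helicase that dissolves joined recombination intermediates, had 39.5 and 40.2 CPM in the knockdown and 47.2 and 48.3 CPM in the controls (-0.26, adjusted p = 0.0289). RBBP8 (0.15) and the exonuclease EXO1 (0.02) were not called, and the interval of EXO1 ran from -0.14 to 0.18.

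None of RAD51B, RAD51C, RAD51D, XRCC2 and XRCC3, which form complexes that act in strand exchange, passed the RNA test by edgeR, and 1 had an unadjusted p under 0.05. All 5 values were positive. RAD51C had 58.2 and 54.8 CPM in the knockdown and 47.7 and 51.4 CPM in the controls (0.19, edgeR adjusted p = 0.104), with no overlap. XRCC2 (0.18), XRCC3 (0.16) and RAD51D (0.08) were likewise small. RAD51B reached 0.43 with a standard error of 0.314, from 59 and 69 counts in the knockdown and 55 and 35 in the controls. The RAD54 translocases, which move along DNA during strand exchange, both lay below 0: RAD54L had 37.4 and 36.4 CPM in the knockdown and 42.4 and 41.8 CPM in the controls (-0.19, adjusted p = 0.120), and RAD54B was at -0.19.

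**Figure D2:**
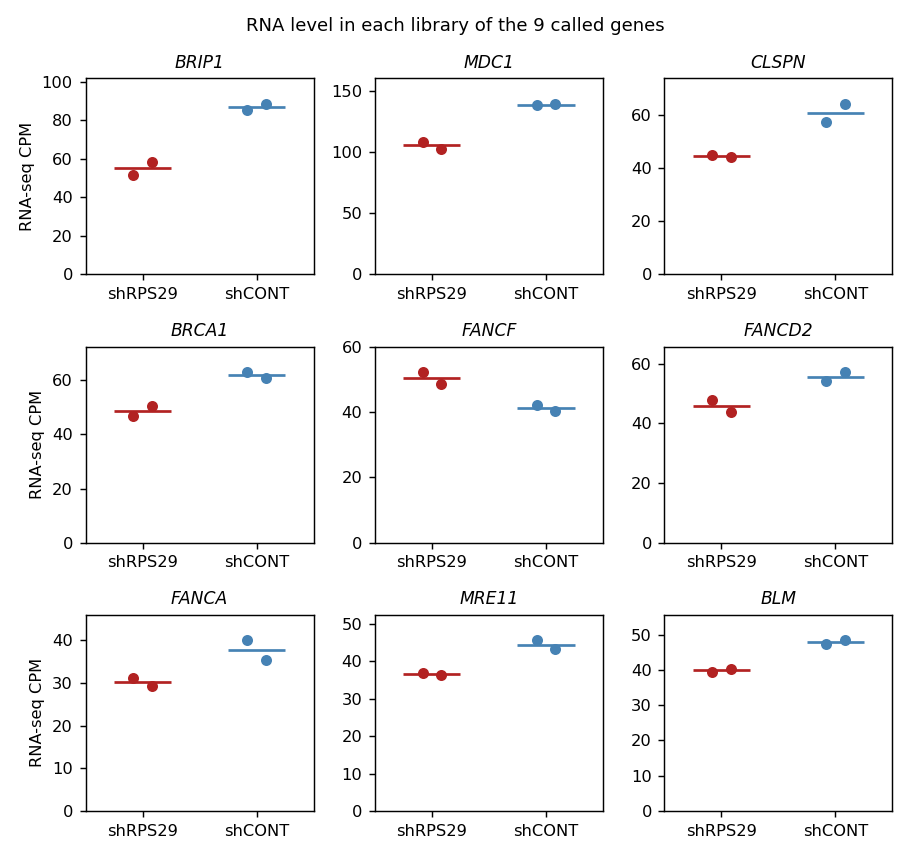
RNA-seq level in CPM (linear axis from 0) in each library of the 9 called genes, shRPS29 left of shCONT. Points are libraries and lines are group means of 2; in each panel the groups do not overlap, with FANCF the sole gene higher in the knockdown (52.2 and 48.6 against 42.3 and 40.4 CPM).

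The precision of RNA-seq limits only larger missed changes. Of the 28 genes that were not called, 25 had a 95% interval inside a 1.5-fold change in either direction (0.585 on the log2 scale). The exceptions were FANCB, FANCM and RAD51B, which had few counts. Of the called genes, BRIP1 alone (-0.66) lay beyond that bound, so missed changes as large as the other calls are not excluded. The interval of ATR, for example, ran from -0.43 to 0.06. These intervals reflect the spread between these libraries, which may be technical. The calls depended on the test and on single libraries. Tested against a 1.5-fold change edgeR called 0 lower and 0 higher. With DESeq2 BRIP1, MDC1, CLSPN and BRCA1 stayed lower (4) and FANCF was lost (0 higher). Leaving out control replicate 1 left 3 genes lower (BRIP1, CLSPN and MDC1) and leaving out control replicate 2 left 5 (these with BRCA1 and FANCA), with 0 higher in either case. Without knockdown replicate 1 there were 8 lower and 1 higher, RAD50 (0.18) in place of FANCF, and without knockdown replicate 2 there were 10 lower and 5 higher.

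Other genes of the same pathways were called in both directions. Of 54 other recombination and Fanconi genes, 52 were tested, of which 11 rose (21.2%) and 8 fell (15.4%), and of 14 other checkpoint genes 3 rose (21.4%) and 4 fell (28.6%). Over all genes tested 14.4% rose and 16.3% fell. The median log2 fold changes were 0.08 and -0.07. TIMELESS, a replication fork protection protein that works with CLSPN, had 125 and 135 CPM in the knockdown and 172 and 186 CPM in the controls (-0.46, SE 0.0754, edgeR adjusted p = 3.39e-04). USP1, which removes ubiquitin from FANCD2, was at -0.43 with 83.8 and 78.2 CPM against 107 and 112 CPM in the controls. The phosphatase CDC25C was at -0.67 and the nuclease-helicase DNA2 at -0.47. In the other direction, RAD51AP1, which acts in strand exchange, had 41.3 and 34.8 CPM in the knockdown and 25.8 and 27.3 CPM in the controls (0.52, adjusted p = 0.00185), PSMC3IP, which acts in strand exchange, was at 0.50, and RAD1, of the clamp that activates ATR, at 0.36.

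The second comparison asked how ribosome footprints on these genes differed. RAD51B was the sole gene called, with a higher value in the knockdown. Genes called higher took 7.96% of 11853 genes tested and genes called lower 0.607%, against 1 of 37 (2.70%) higher and 0 of 37 lower here. With an unadjusted p under 0.05 there were 3 higher and 2 lower. DESeq2 also called 1 higher and 0 lower, and limma-voom 1 higher and 1 lower. The median log2 fold change of the 37 genes was -0.15, against 0.04 over all genes tested, and it was 0.12 against 0.29 when scaling was computed over genes with at least 10 RNA CPM. Among genes with at least 50 counts in a group mean, 23 of the 37, the order turned, at 0.26 against -0.04 over all genes. The summed RNA of the noradrenergic markers was close between groups, but 2 of the 9 tested were called higher and 2 lower. That is 22.2% each, against 14.4% higher and 16.3% lower over all genes tested in RNA. Their Ribo-seq sums were 528 and 855 CPM in the knockdown and 1095 and 1280 CPM in the controls. In Ribo-seq 1 of their 9 tested genes was called lower and 0 higher, with a median of -1.01. Their part in the footprint values was not tested. Depth limits the comparison. The median gene of the 37 had 29 and 52 counts in the knockdown and 42 and 45 in the controls, and 95% intervals of log2 fold changes were between 2.26 and 4.65 wide.

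Genes almost without RNA also had Ribo-seq counts. In 436 protein-coding genes with at most 0.1 RNA CPM and a span of at least 100 kb, the median was 0.260 and 0.193 Ribo-seq counts per kb in the knockdown and 0.0496 and 0.0276 per kb in the controls. These genes were taken from those listed in Ribo-seq, and a gene not listed in RNA-seq counted as without RNA. Long genes without RNA that Ribo-seq does not list were left out. This may raise the rate. A gene may also be listed through its knockdown counts alone, so the difference in rate between groups may come partly from this selection. Neither effect was tested. Multiplied by a gene's annotated span, this rate gives a rough expected background. For the 37 genes, with spans from 3.3 to 863 kb, it amounts to a median of 54.7 and 24.0% of their counts in the knockdown libraries, against 7.3 and 3.8% in the controls. In 7 genes it exceeds 50% in both knockdown libraries. The estimate overshoots for some genes: it is above the whole count of 6 genes in knockdown replicate 1 (up to 240%, BRIP1) and of 2 in replicate 2 (up to 157%, FANCM), and of 0 genes in either control. The 10 genes with spans over 100 kb had a median footprint log2 fold change of 0.54 (7 above 0) and the 27 shorter ones -0.31 (8 above 0). Their RNA medians were -0.17 and -0.06. The same split was not made over all genes tested, and whether span or background goes with the footprint change was not tested.

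RAD51B spans 863 kb on chromosome 14 (67819779 to 68683096, GRCh38.p14), the longest of the 37. Its Ribo-seq counts were 328 and 204 in the knockdown and 68 and 52 in the controls, a log2 fold change of 2.37 (SE 0.613, edgeR adjusted p = 0.0228). The groups do not overlap, but the expected background is 225 and 166 counts in the knockdown and 42.9 and 23.8 in the controls. Taking it away would leave 103 and 37.6 counts against 25.1 and 28.2 in the controls. These values carry the limits of the estimate, both its overshoot in other genes and the selection behind its rate. RAD51B was not called without knockdown replicate 1 (1.51, adjusted p = 0.168), control replicate 1 (adjusted p = 0.207) or control replicate 2 (adjusted p = 0.435).

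**Figure D3:**
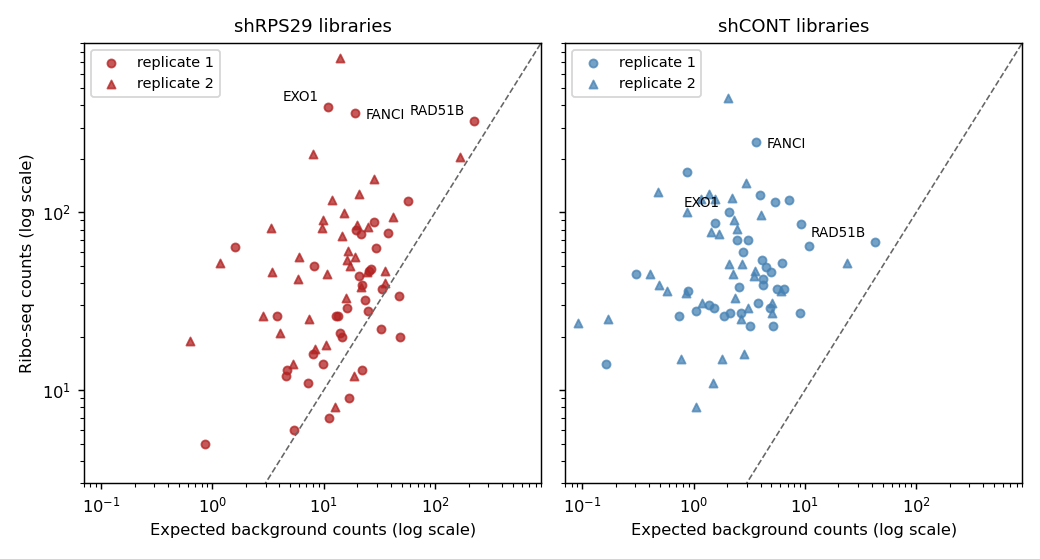
Ribo-seq counts (vertical, log scale) against the background expected from gene span (horizontal, log scale) for the 37 genes, with shRPS29 libraries on the left and shCONT libraries on the right. The dashed line marks equal values; RAD51B lies close to it in the knockdown (328 counts against 225 expected in replicate 1), while EXO1 and FANCI lie far above it.

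EXO1, with a span of 42 kb, had few counts expected as background. It had 392 and 212 footprint counts in the knockdown and 100 and 119 in the controls, against an expected 10.9 and 8.09 in the knockdown and 2.08 and 1.16 in the controls. Both knockdown libraries lay above both controls, but the log2 fold change of 1.71 (SE 0.610) was not called (edgeR adjusted p = 0.0946). The knockdown libraries differed from each other, at 163 and 53.2 CPM against 29.8 and 36.1 CPM in the controls. The value was 2.23 and called without knockdown replicate 2 (adjusted p = 0.0401) but 0.70 without replicate 1. RAD54B had 48 and 85 counts against 23 and 16 in the controls (1.81, adjusted p = 0.112), of which 26.8 and 19.9 were expected as background in the knockdown. It shares its span with FSBP, from which its reads may not be separable. FANCI, with the most footprints of the 37, had 360 and 739 counts in the knockdown and 248 and 440 in the controls (0.69, adjusted p = 0.507).

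MDC1, CHEK1, ATRIP and RAD51C gave the lowest footprint log2 fold changes of the 37. MDC1 had 12 and 82 counts in the knockdown and 169 and 130 in the controls, which is 4.99 and 20.6 CPM against 50.4 and 39.4 CPM. Its groups did not overlap and its span is short (17.5 kb), yet the log2 fold change of -1.78 (SE 0.651) was not called (edgeR adjusted p = 0.102). MDC1 was called in 3 of 12 alternative runs, among them limma-voom (adjusted p = 0.0396) but not DESeq2 (adjusted p = 0.0966). Its value depended on the knockdown library kept, at -3.24 when replicate 2 was dropped and -1.12 when replicate 1 was dropped. CHEK1 had 20 and 45 counts against 60 and 119 in the controls (-1.45, adjusted p = 0.170), where its RNA was at -0.06. ATRIP had 6 and 21 against 28 and 36 (-1.28, adjusted p = 0.428), and RAD51C 7 and 17 against 27 and 31 in the controls (-1.26, adjusted p = 0.455). For these 4 genes the footprint groups do not overlap, and none passed the edgeR test. Over all genes tested, both knockdown libraries lay below both controls in 26.7% and above in 29%, against 10 and 8 of the 37.

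**Figure D4:**
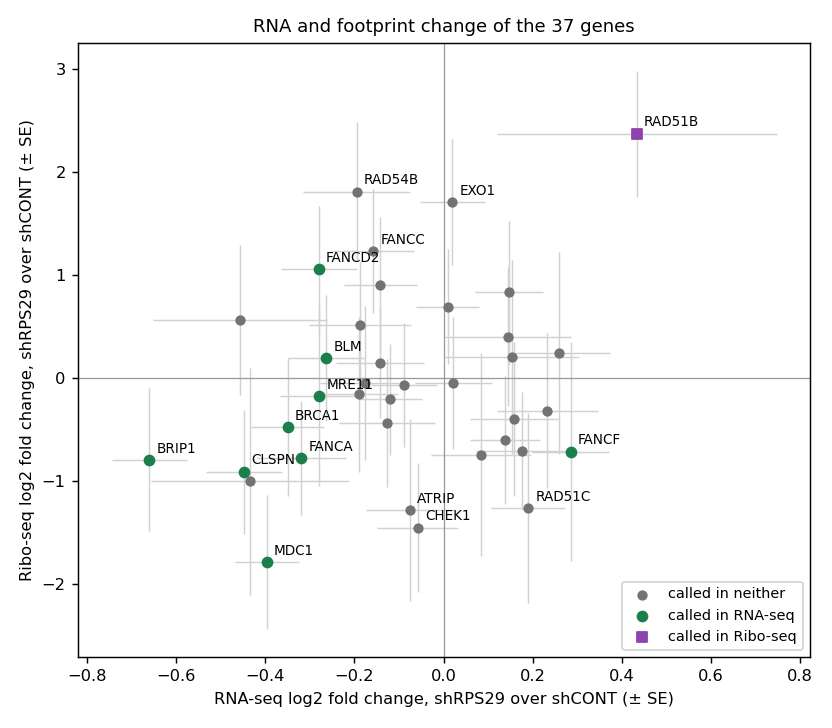
RNA-seq (horizontal) and Ribo-seq (vertical) log2 fold changes, shRPS29 over shCONT, of the 37 genes, with bars of 1 standard error; the vertical scale is several times the horizontal. Vertical bars dwarf horizontal ones, and RAD51B alone is called in Ribo-seq (2.37). Of the genes called in RNA-seq, BRIP1, MDC1, CLSPN, BRCA1, FANCA and MRE11 lie below 0 on both axes, as do others that were not called.

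Of the 8 genes whose RNA fell, 6 had a footprint log2 fold change below 0, FANCD2 (1.06) and BLM (0.20) being the exceptions. Over all 37 genes 22 had a value below 0, and whether the 8 differ from the rest in this was not tested. FANCD2 had 80 and 74 footprint counts in the knockdown and 31 and 51 in the controls, without overlap, and was not called (edgeR adjusted p = 0.325). BRIP1 had 20 and 47 against 86 and 31 in the controls, with overlap, and was not called (-0.79, 95% interval -2.26 to 0.67). The 48.0 counts expected as background over its 184 kb in knockdown replicate 1 exceed the 20 observed. Across the 37 genes RNA and footprint changes had a Pearson r of 0.217 and a Spearman rho of 0.121, a description over genes that share the same libraries.

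The third comparison asked whether footprints changed beyond RNA, as translational efficiency, their ratio. By the edgeR interaction test 0 of 37 genes were called, against 2.9% higher and 1.35% lower of 10648 genes tested. With an unadjusted p under 0.05 there were 5 higher and 2 lower. The median was -0.01, against -0.06 over all genes tested, and 0.39 against -0.13 among genes with at least 50 counts in a group mean. RAD54B (2.01, SE 0.493, adjusted p = 0.0580) and RAD51C (-1.43, SE 0.438, adjusted p = 0.0892) came nearest. Next by adjusted p were RAD51B at 1.94 (0.129), CHEK1 at -1.38 (0.130), EXO1 at 1.68 (0.137) and FANCD2 at 1.33 (0.144). This model gives RNA-seq and Ribo-seq 1 dispersion per gene, while Ribo-seq replicates correlated less than RNA-seq replicates, and what this does to its p-values was not tested. The number of calls depended on which library was left out. Over all genes tested, calls became fewer whichever RNA-seq library was left out, and also without Ribo-seq control replicate 2. They became more numerous without any 1 of the other Ribo-seq libraries. For the 37 genes the number changed only when a Ribo-seq library was left out. With Ribo-seq knockdown replicate 2 left out, the median was -0.25 for the 37 genes and -0.25 over all genes tested. Leaving out knockdown replicate 1 gave -0.07 for the 37 genes and -0.08 over all genes tested. For control replicate 1 these medians were -0.03 and -0.03, and for control replicate 2 they were 0.06 and -0.01.

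Some values could hold reads of other genes. Of the 37 genes, 16 overlap a protein-coding neighbour in RefSeq, such as FANCA with ZNF276, MRE11 with ANKRD49 and ATRIP with TREX1, and 4 span a small RNA gene (FANCC, MRE11, RBBP8 and BLM). BRIP1 and FANCF overlap no annotated gene. CLSPN and MDC1 overlap antisense RNAs, and BRCA1 overlaps NBR2 and a partial copy, BRCA1P1. The RNA kit keeps strand, but whether counting used it was not stated in the labels.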

How the data were processed

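RNA-seq and Ribo-seq were each deposited as 1 table of raw counts by gene symbol, whole numbers throughout, and together they cover 8 libraries in 4 groups of 2. The submitters' processing notes name build hg38 and the tools featureCounts, STAR, Bowtie2, Salmon and Trim Galore, without roles. Versions, annotation and strand setting were not stated, nor whether footprints were limited to coding exons, which bears on counts of genes with long spans. From the counts, edgeR 4.0.16 (R 4.3.3) quasi-likelihood tests with TMM scaling, filterByExpr and Benjamini-Hochberg adjustment over all genes were run, with calls at an adjusted p under 0.05. CPM values are TMM-scaled. Standard errors are the absolute log2 fold change over the square root of F. Translational efficiency is the assay-by-condition interaction over all 8 libraries. The scripts were tested on simulated data. Expected Ribo-seq background is the median count per kb of long genes listed in Ribo-seq and almost without RNA, times gene span. Alternatives were RLE scaling, DESeq2 1.42.0, limma-voom (limma 3.58.1), other count filters, a replicate block, a 1.5-fold null hypothesis and leaving out each library. The genes and lists were chosen with earlier results of these data known. Values in every library are given for called genes, for the gene with the smallest RNA-seq p in each role, and for the sole gene called in Ribo-seq; the 8 called genes with the smallest p are named among related ones. Any other gene given with values per library was chosen after its values were seen. Spans and overlaps come from RefSeq (GRCh38.p14), matched by symbol for 37 of the 37 genes.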

Additional observations from a re-analysis of the deposited data

How the results depend on the processing

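Directions of the 9 RNA calls held under each alternative run. Under DESeq2 the RNA counts were 4 lower and 0 higher (1911 and 1589 over all genes), and against a 1.5-fold change 0 and 0 (167 and 69 over all genes). Leaving out each library gave 3 to 10 genes lower and 0 to 5 higher, a median log2 fold change from -0.12 to -0.068, and 1496 to 2876 genes lower and 1225 to 2739 higher in all. For Ribo-seq it gave 0 to 1 lower and 0 to 2 higher, a median from -0.37 to -0.037, and 5 to 53 and 247 to 694 in all. For translational efficiency it gave 0 to 5 and 0 to 7, a median from -0.25 to 0.056, and 0 to 2229 and 0 to 1778 in all; TOPBP1 ranged from -0.85 (called, without Ribo-seq knockdown replicate 2) to 0.53, against 0.05 with all libraries. A fit that leaves 1 library in a group assumes that it varies like the others.

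Genes lower in Ribo-seq, 72 in all, numbered 171 with DESeq2, 171 with limma-voom (1 of the 37), 30 against a 1.5-fold change and 22 with scaling over genes with at least 10 RNA CPM. With that scaling the medians of the 37 were 0.12 in Ribo-seq and 0.23 in translational efficiency (79 genes lower in all), and that of all genes in Ribo-seq was 0.29 in place of 0.04. With at least 50 counts in a group mean, which left 23 of the 37 tested, the medians were 0.26 (-0.04 over all genes) and 0.39 (-0.13), with 1 gene higher in translational efficiency, RAD54B, and 250 lower in all. Without a count filter 60 genes were lower in translational efficiency. The cause of these shifts was not tested.

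With the replicate number as a block, RNA-seq had 6 of the 37 lower and 1 higher, with 2048 lower and 1764 higher in all. Ribo-seq had 1 lower (MDC1) and 2 higher (RAD51B and EXO1), with 397 lower and 1402 higher in all. In translational efficiency the block gave a median of -0.068, and 0 lower and 22 higher in all. Nothing in the labels says that numbers pair libraries. Deviations of same-numbered libraries correlated at -0.114 in RNA-seq and 0.0853 in Ribo-seq. The crossed pairing in RNA-seq, chosen after seeing the data, gave 8 lower and 1 higher, with 2849 lower and 2627 higher in all.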

Other observations

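End joining without a template is the other main route of double-strand break repair, and 10 of its genes were tested in RNA. Of these, 2 rose and 0 fell by edgeR (3 higher and 0 lower at an unadjusted p under 0.05), with a median log2 fold change of -0.01. The 20% that rose is near the 14.4% of all genes tested, of which 16.3% fell. DCLRE1C (Artemis), the nuclease that opens hairpin ends, had 20.1 and 18.9 CPM in the knockdown libraries and 9.86 and 11.3 CPM in the controls. That is 0.88 on the log2 scale (SE 0.132, edgeR adjusted p = 1.71e-04), beyond any value among the 37 recombination, Fanconi and checkpoint genes. PAXX, a factor that stabilises Ku at ends, was the other gene that rose (0.36, adjusted p = 0.0109) and was named after its value was seen. In Ribo-seq 0 of the 8 tested were called, also at an unadjusted p under 0.05, and DCLRE1C was at 1.43 (adjusted p = 0.263). Among other recombination genes, also named after their values were seen, footprints of BABAM2, a BRCA1-A complex subunit, were higher (2.67, edgeR adjusted p = 0.0155) and those of UBE2T, the Fanconi ubiquitin-conjugating enzyme, lower (-1.88, adjusted p = 0.0498). They were the 1 higher and 1 lower of 44 tested (2.27% each), against 7.96% higher and 0.607% lower over all genes tested. The Ribo-seq background expected from span was computed for the 37 genes only, so its part in these values is not known.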
